A study of Xenopus laevis with 12 samples.

Results

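The genes described here were near silent in the brains of control *Xenopus laevis* tadpoles and raised by thyroxine (T4). They are 11 of the 51041 genes listed in the deposited count tables. RNA was sequenced from tadpole brains in 3 groups of 4 samples, and each library came from 2 pooled brains. The T4 group was kept in T4 at 10 nM, the mixture group in the amniotic mixture at 1x, and the control group in neither, each for 8 days from just after fertilization to stage NF 47. The amniotic mixture combines chemicals, most of them known or suspected to disturb thyroid hormone signalling, among them phthalates, phenols, metals, pesticides and halogenated compounds, at concentrations found in human amniotic fluid. All groups, the control included, were kept in the same amount of the solvent DMSO. The samples keep the numbers of their labels, 9 to 12 for T4, 5 to 8 for the mixture and 1 to 4 for the control. The methods name 2 breedings, but the labels do not say which sample came from which breeding or whether the pools of a group shared a well, so that tests between groups measure the spread between these pools.

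T4 is the main hormone released by the thyroid gland. Deiodinases in the tissues turn it into T3, the form that binds the nuclear thyroid hormone receptors, and these receptors act as transcription factors on their target genes. Without hormone the receptors tend to hold many targets down, and with hormone they activate them. In amphibians this switch drives metamorphosis, including the remodelling of the tadpole brain. The stage studied comes before the rise of the tadpole's own hormone at metamorphosis.

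A gene belonged to the group described here when 4 conditions were met. Its mean level in the control samples was under 1 CPM, the number of reads counted on the gene per 1000000 reads counted on all genes of the sample. Its mean level in the T4 samples was at least 2 CPM. Its difference of T4 from control was at least 1.5, on the scale log2(CPM + 0.5), which understates the change of low genes. All 4 T4 samples were above all 4 control samples. These values of the T4 and control samples chose the genes, so that the difference between T4 and control is given as a description only, and no count of calls in that contrast supports it. Of the 51041 genes, 24640 had a control mean under 1 CPM, and 12449 of these had at least 1 read in some sample. Only 35 of them reached a mean of 2 CPM after T4, 12 of these had a difference of at least 1.5, and 11 had no overlap between T4 and control samples. Just inside the limits were genes with a difference of 1.52, with a T4 mean of 2.16 CPM and with a control mean of 0.912 CPM. Just outside, 17 genes failed only on the difference (the nearest at 1.48) and 1 failed only on the T4 level, at 1.57 CPM. Another 265 failed only on the control level, the nearest with a control mean of 1.07 CPM.

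The genes are ranked here from 1 to 11 by their mean level after T4, and each is called by its rank. Genes are listed by number only, and 0 of the numbers matched an entry that gives a name in the RefSeq table used here. Names, functions, genome positions and sequences are therefore not given, and the labelled tissue was not checked against marker genes. Only the numbers of the genes of rank 1 and 2 are printed, gene47213 and gene47623. The numbers of the 11 genes lay between 6033 and 49543 and none were neighbours, with at least 410 between any pair.

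Between 10420292 and 11685566 reads were counted on genes in a sample. A count of 3 was taken as the floor, which is 0.257 to 0.288 CPM, and 1 read is 0.0856 to 0.0960 CPM. Control levels of most of these genes lay near this floor, where they rest on a few reads. Component 2 of a principal component analysis held 20.5% of the variance on the 38839 genes with at least 1 read other than the 11. It divided every group into a second set (T4 samples 11 and 12, mixture samples 7 and 8, control samples 3 and 4), at scores from -15.6 to -13.0, and a first set (T4 samples 9 and 10, mixture samples 5 and 6, control samples 1 and 2), at scores from 12.9 to 15.8. Results are given within these sets as well.

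gene47213, the gene of rank 1, went the furthest between near silence and expression. It had 113, 66, 238 and 114 reads in T4 samples 9 to 12, against 0, 2, 1 and 0 reads in control samples 1 to 4. All control samples were at or under the floor, and the lowest T4 sample was 33.8 times the highest control sample in CPM. Its mean level was 11.8 ± 6.14 CPM after T4 and 0.0697 ± 0.0882 CPM in the control (SD, n = 4 samples each), a difference of 4.32 on the log2(CPM + 0.5) scale. With 531 reads after T4 and 3 in the control, the ratio of the summed levels was 171, with a 95% interval of 58.3 to 833 (exact Clopper-Pearson, counting error only). After the mixture it had 3, 2, 0 and 0 reads in samples 5 to 8, which overlaps with the control samples and lies wholly below the T4 samples.

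gene47623, the gene of rank 2, had the same form. It had 104, 56, 203 and 147 reads in T4 samples 9 to 12, against 3, 0, 2 and 3 reads in control samples 1 to 4. Its mean level was 11.3 ± 5.22 CPM after T4 and 0.186 ± 0.130 CPM in the control (SD, n = 4 samples each), a difference of 4.01. The ratio of the summed levels was 61.7 (95% interval 31.1 to 144, exact Clopper-Pearson, counting error only). In the mixture samples 5 to 8 it had 0, 0, 3 and 0 reads, no more than in the control samples.

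Rank 3 had 106, 115, 73 and 107 reads in T4 samples 9 to 12, against 4, 14, 5 and 0 reads in control samples 1 to 4. The level was 9.04 ± 1.93 CPM after T4 and 0.531 ± 0.543 CPM in the control (SD, n = 4 samples each), a difference of 3.33 and a ratio of summed levels of 16.9. It had 6, 4, 2 and 5 reads in mixture samples 5 to 8, within the range of the control samples. These 3 genes made up 57.3% of the summed level of the 11 genes after T4. The other 8 had T4 means from 2.16 to 3.66 CPM, so that a gap lay between rank 3 and rank 4.

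**Figure D1:**
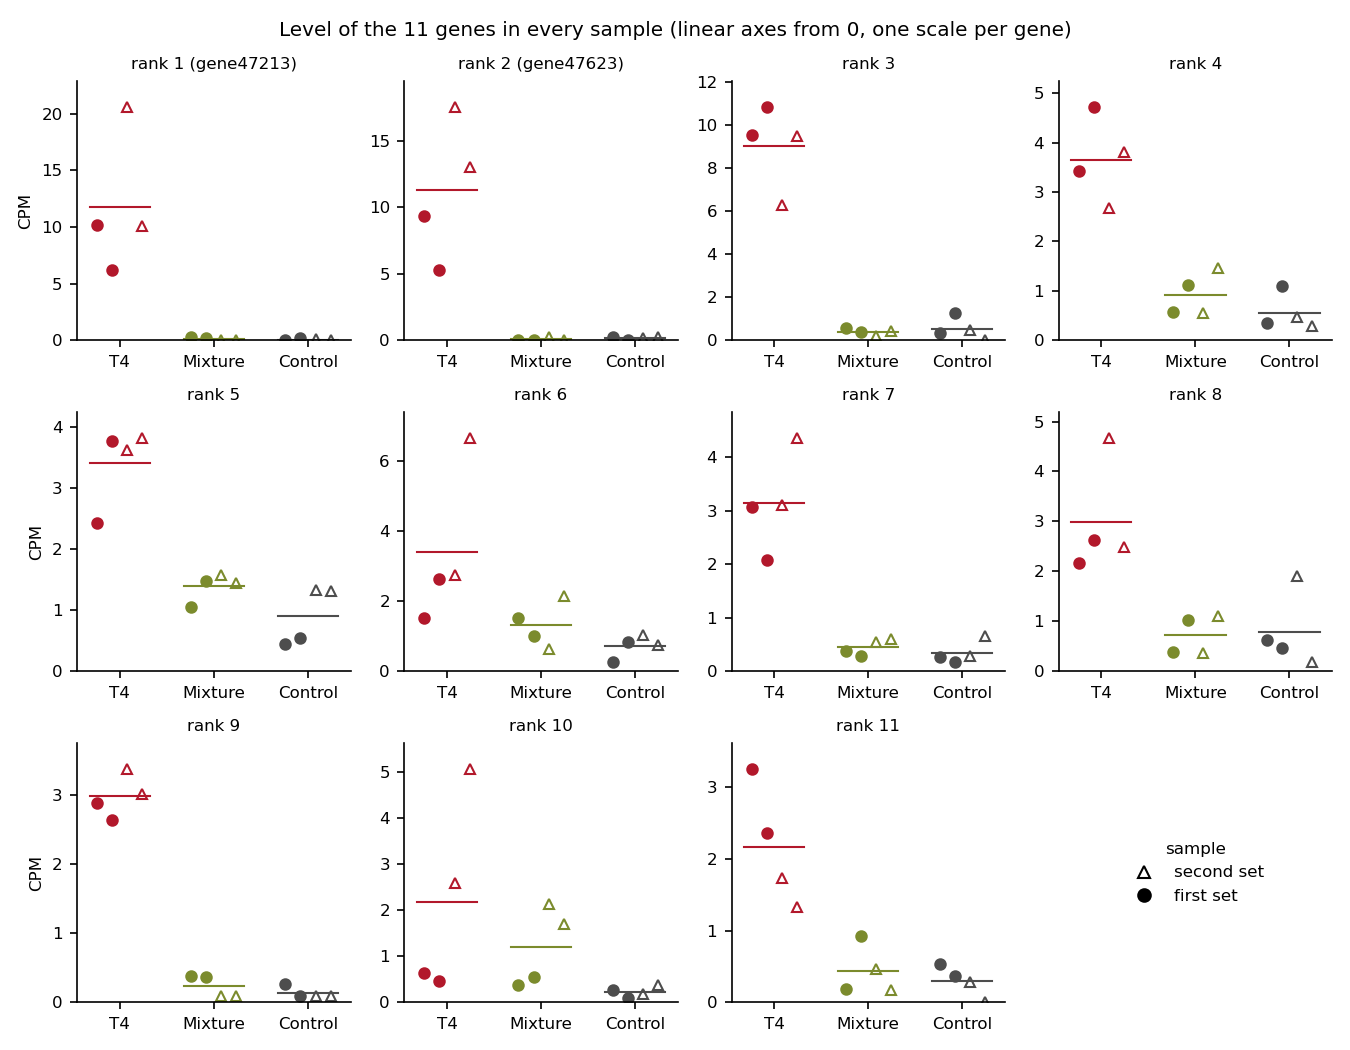
Level in CPM of the 11 genes in every T4, mixture and control sample, with 1 panel and 1 linear axis per gene, points for samples (open triangles for the second set, filled circles for the first) and bars for group means. The T4 points of ranks 1 to 3 lie far above both other groups, those of ranks 4 to 11 at 0.471 to 6.65 CPM, and mixture points reach the T4 range in ranks 6 and 10.

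The genes of rank 9 and 7 came next in the size of the difference, at 2.45 and 2.10. Rank 9 had 32, 28, 39 and 34 reads in T4 samples 9 to 12, against 3, 1, 1 and 1 reads in control samples 1 to 4. Every control sample was at or under the floor, and the T4 samples varied the least among the 11 genes, with a coefficient of variation of 10.2%. Its ratio of summed levels was 21.4 (95% interval 9.60 to 59.5, exact Clopper-Pearson, counting error only). Rank 7 had 34, 22, 36 and 49 reads in T4 samples 9 to 12, against 3, 2, 3 and 7 reads in control samples 1 to 4. In the mixture samples 5 to 8, the gene of rank 9 had 4, 4, 1 and 1 reads and the gene of rank 7 had 4, 3, 6 and 7 reads, all below the lowest T4 sample.

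The genes of rank 4, 5, 6 and 8 were the least silent in the control, with means from 0.555 to 0.912 CPM. Rank 4 had 38, 50, 31 and 43 reads in T4 samples 9 to 12, against 4, 12, 5 and 3 reads in control samples 1 to 4. Rank 5 had 27, 40, 42 and 43 reads in T4 samples 9 to 12, against 5, 6, 14 and 14 reads in control samples 1 to 4. The lowest T4 sample was 2.43 times the highest control sample in CPM for rank 4 and 1.83 times for rank 5. Rank 6 had 17, 28, 32 and 75 reads in T4 samples 9 to 12, against 3, 9, 11 and 8 reads in control samples 1 to 4, so that T4 sample 12 carried much of its mean. Rank 8 had 24, 28, 54 and 28 reads in T4 samples 9 to 12, against 7, 5, 20 and 2 reads in control samples 1 to 4. Its lowest T4 sample was only 1.14 times its highest control sample in CPM, the narrowest gap of the 11 genes. The differences of ranks 4, 5, 6 and 8 were 2.01, 1.52, 1.56 and 1.54.

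The last 2 genes had the lowest T4 levels. Rank 11 had 36, 25, 20 and 15 reads in T4 samples 9 to 12, against 6, 4, 3 and 0 reads in control samples 1 to 4, with 2, 10, 5 and 2 reads in mixture samples 5 to 8. The gene of rank 10 had 7, 5, 30 and 57 reads in T4 samples 9 to 12, against 3, 1, 2 and 4 reads in control samples 1 to 4. Its T4 samples of the second set were thus far above those of the first set, which stood just above the control, and its coefficient of variation of 97.9% was the highest of the 11 genes. It is described further with the mixture and the sets.

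Over the 11 genes, the difference of T4 from control had a median of 2.01 and a range from 1.52 to 4.32. Over the 12438 other genes with at least 1 read and a control mean under 1 CPM, the median was -0.02. All 11 passed the filter on low counts, which their T4 levels alone could ensure for all but rank 10. Rank 10 had only 7 and 5 reads in T4 samples 9 and 10. With the T4 and control samples alone, 10 of the 11 genes passed the filter. The choice of the genes fixes their place in the fit of all genes, where 11 of the 11 stood among the genes called higher after T4 (edgeR's quasi-likelihood test, adjusted p under 0.05 by Benjamini-Hochberg). Of the 27141 genes tested, 14.7% were called higher. Genes with all T4 samples above all control samples were 9.67% of the 38850 genes with at least 1 read and 1.24% of those with a control mean under 1 CPM. The rule used this contrast and nothing is read from these counts. The libraries are bulk samples, so that more cells with a given RNA and more RNA per cell cannot be told apart. The names of the control tables list the trimming of the reads' first bases a second time, unlike those of the T4 and mixture tables. In the mixture tables, named like those of T4, 8 of the 11 genes had a mean under 1 CPM and ranks 5, 6 and 10 a mean above it. The difference in names coincides with the control group, so that it cannot be told apart from the lack of exposure. The study's methods name no difference in trimming between the groups. Whether the control reads were trimmed differently, and what part this had in the control levels, was not tested.

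**Figure D2:**
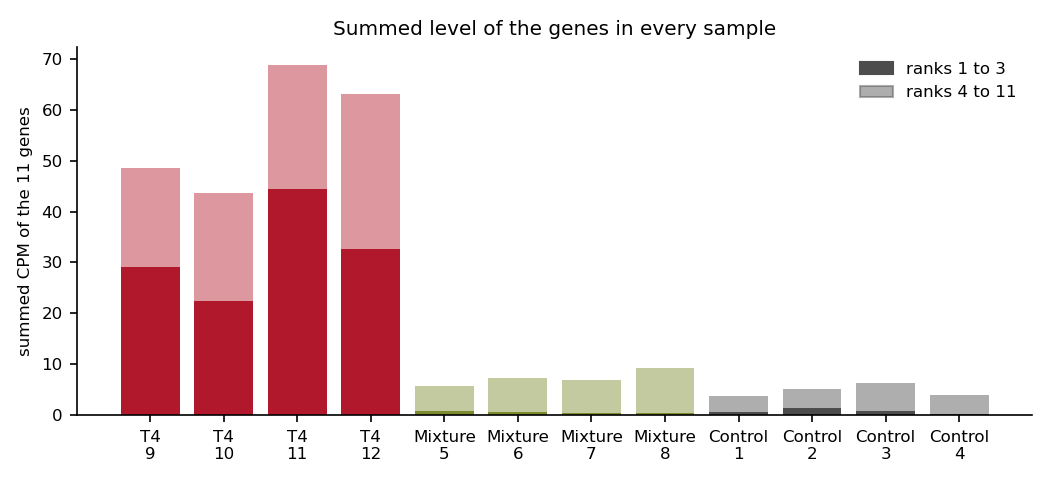
Summed CPM of the 11 genes in every sample, divided into ranks 1 to 3 (dark) and ranks 4 to 11 (light). The T4 samples lie between 43.6 and 68.9 CPM, the mixture samples between 5.76 and 9.16 CPM and the control samples between 3.70 and 6.37 CPM.

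The T4 samples did not rank in the same order for all genes. T4 sample 11 was the highest for ranks 1, 2, 8 and 9, T4 sample 12 for ranks 5, 6, 7 and 10, T4 sample 10 for ranks 3 and 4, and T4 sample 9 for rank 11. gene47213 was at 20.5 CPM in T4 sample 11, against 6.22 CPM in T4 sample 10, its lowest. The counting intervals of these values did not overlap (18.0 to 23.3 CPM in T4 sample 11 and 4.81 to 7.91 CPM in T4 sample 10, 95% exact Poisson). gene47623 had its highest and its lowest level in the same samples, at 17.5 CPM in T4 sample 11 and 5.28 CPM in T4 sample 10. Rank 3 had the opposite order, with 6.30 CPM in T4 sample 11 as its lowest level and 10.8 CPM in T4 sample 10 as its highest. Rank 4 followed rank 3, with 2.68 CPM in T4 sample 11 and 4.71 CPM in T4 sample 10. Across the 11 genes the highest T4 sample was from 1.28 times (rank 9) to 10.7 times (rank 10) the lowest in CPM. The median coefficient of variation among the T4 samples was 38.0%, against 19.1% over the 6847 other genes with a T4 mean from 2 to 12 CPM. This is a description without a test. The rule used these T4 values, and the levels were not matched, since 8 of the 11 genes had a T4 mean under 4 CPM.

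**Figure D3:**
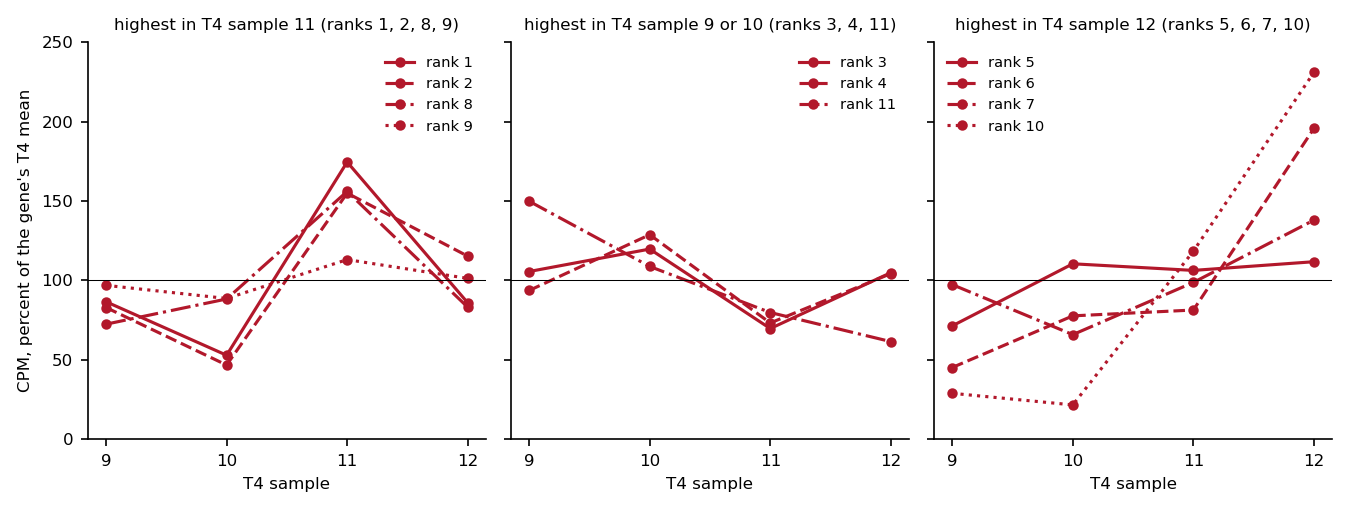
Level of each of the 11 genes in T4 samples 9 to 12 as a percent of the gene's mean over these samples, with the genes grouped by the sample in which they were highest and lines joining the values of 1 gene. Ranks 1, 2, 8 and 9 peak in T4 sample 11, where ranks 3 and 4 are lowest, and ranks 6 and 10 spread the most, with their peak in T4 sample 12.

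Most of these genes stayed below the T4 level after the amniotic mixture. The mixture samples took no part in the choice of the genes, but the control samples did, and both comparisons share them. Mean levels after the mixture ranged from 0.0696 CPM (rank 2) to 1.39 CPM (rank 5), against 0.0697 to 0.912 CPM in the control. The difference of the mixture from control had a median of 0.18 and ran from -0.27 (rank 2) to 1.08 (rank 10), above 0 for 9 genes and below 0 for 2. The share above 0 over all genes was not counted, and the rule chose genes with low control values. On scales that do not damp low genes, the median was larger, with a ratio of summed levels of mixture to control of 1.54 and a log2 fold change of 0.64 in edgeR's fit. Rank 8, at 0.02 on the log2(CPM + 0.5) scale, was lower after the mixture on both of these scales (ratio 0.930, log2 fold change -0.09). Over the 12438 other genes with a control mean under 1 CPM the median on the log2(CPM + 0.5) scale was 0.00. With edgeR's quasi-likelihood test and p-values adjusted over all genes by Benjamini-Hochberg, 0 of the 11 genes were called after the mixture. The mixture called 0.520% of all genes tested, and 0.0405% as higher. An unadjusted p under 0.05 was found for 1 of the 11, and for 4213 of the 27141 genes tested. The T4 reads helped the genes pass the filter on low counts in this fit. With the mixture and control samples alone, 2 of the 11 passed it and 0 were called, against 0% of all genes. The 0 calls thus cannot show that these genes were unchanged. DESeq2 called 0 as well, against 3.06% of all genes, and gave an adjusted p for 1 of the 11. Both mixture samples were above both control samples in 3 genes within the second set, where 19.6% of the genes with at least 1 read had this order, and in 6 genes within the first set, where 13.7% had it. Apart from rank 10, the adjusted p ranged from 0.412 to 0.957 in edgeR's test. Counting intervals of the ratio of mixture to control included 1 for 8 genes and lay above 1 for ranks 5, 6 and 10, where they cover counting error only.

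The comparison of the mixture with T4 separated the genes further. In 9 of the 11 genes every mixture sample was below every T4 sample, which held for 13.4% of the genes with at least 1 read. The exceptions were ranks 6 and 10. The gene of rank 6 had 16, 11, 7 and 25 reads in mixture samples 5 to 8, and the gene of rank 10 had 4, 6, 23 and 20. In edgeR's quasi-likelihood test, 10 of the 11 genes were called lower after the mixture than after T4, against 19.9% of all genes tested. The T4 samples were used to choose the genes, so that this count is a description. The gene not called was that of rank 10, with a log2 fold change of -0.86 (adjusted p = 0.347, edgeR's quasi-likelihood test, adjusted by Benjamini-Hochberg). For rank 6 it was -1.34 (adjusted p = 0.0415 in the same edgeR test). When 1 sample was left out, rank 6 was not called in 7 of 12 fits, those without control sample 4, mixture samples 5, 6 or 7, or T4 samples 10, 11 or 12, with an adjusted p of up to 0.194.

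**Figure D4:**
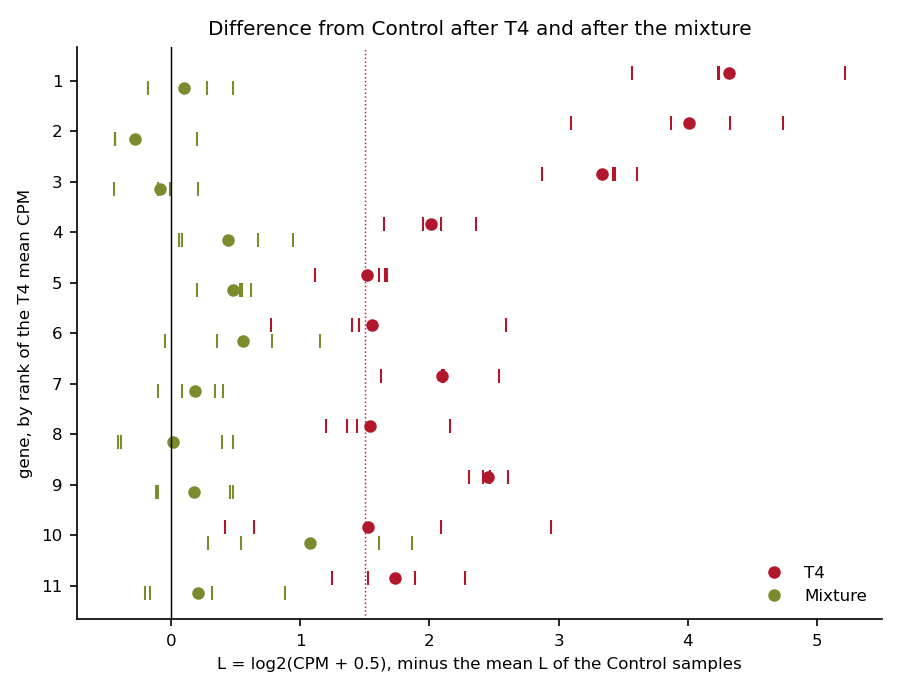
Difference from the mean of the control samples on the log2(CPM + 0.5) scale for T4 (red) and the mixture (green), with a tick for each sample, a dot for the mean of 4 samples, and the limit of 1.5 as a dotted line. T4 means run from 1.52 to 4.32, and mixture means lie between -0.27 and 0.56 except rank 10, at 1.08.

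The gene of rank 10 was singled out after its values had been seen. All 4 mixture samples were above all 4 control samples, which was so for no other of the 11 genes, for 1.63% of the genes with at least 1 read, and for 0.755% of those with a control mean under 1 CPM. This order rests on the depth of the libraries. The lowest mixture sample, 5, and the highest control sample, 4, both had 4 reads (0.384 and 0.376 CPM). The level of rank 10 was 1.20 ± 0.860 CPM after the mixture and 0.232 ± 0.121 CPM in the control (SD, n = 4 samples each). The log2 fold change was 2.35 (standard error 0.87) and did not pass the threshold (adjusted p = 0.221, edgeR's quasi-likelihood test, adjusted by Benjamini-Hochberg). In the fit of the mixture and control samples alone, the gene did not pass the filter on low counts. Samples of the second set were the high ones in both exposed groups. In the second set the gene had 30 and 57 reads after T4, 23 and 20 after the mixture, and 2 and 4 in the control. In the first set it had 7 and 5 reads after T4, 4 and 6 after the mixture, and 3 and 1 in the control. When the fit held both group and set, the log2 fold change of the mixture was 2.28 and was called (adjusted p = 0.0344, edgeR's quasi-likelihood test). That fit called 2.30% of all genes for the mixture, and 1 of the 11 genes. Within the second set, in a fit chosen after seeing the data, the mixture gave a log2 fold change of 2.74 (adjusted p = 0.0342, edgeR's quasi-likelihood test), where 2.77% of all genes were called. Within the first set it was 1.35 (adjusted p = 0.671, edgeR's quasi-likelihood test), and 0% of all genes were called.

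The rule fixes the order of T4 and control within each set, but not the size of the difference. The difference of T4 from control had a median of 2.13 and a range from 1.21 to 4.78 in the second set, and a median of 1.94 and a range from 0.63 to 3.86 in the first. It was larger in the second set for 9 of the 11 genes, an order whose share over all genes was not counted. The order depended on the scale. The ratio of summed levels of T4 to control was larger in the first set for rank 7 (11.3 against 7.87 in the second) and rank 8 (4.38 against 3.45). For rank 11 that ratio was smaller in the first set (6.17 against 10.8), unlike its difference. Rank 10 had the widest contrast, with a difference of 2.41 in the second set and 0.63 in the first. In the first set the ratio of its summed levels of T4 to control was 3.04, and its interval of 0.920 to 12.9 included 1 (95%, exact Clopper-Pearson, counting error only). For gene47213 the difference was 4.78 in the second set and 3.86 in the first. Rank 5 went the other way, at 1.21 in the second set and 1.82 in the first, with control samples of 14 and 14 reads in the second set and 5 and 6 in the first. The rule did not use the difference between the sets, which is the interaction of T4 and set. It did ask for T4 above control in both sets, in these same samples, which limits how far the sets can differ. A lack of calls in this interaction thus cannot show that the sets were alike. In edgeR's quasi-likelihood test of this interaction, 0 of the 11 genes were called and 0 had an unadjusted p under 0.05. Among all 28037 genes tested, 0 (0%) were called and 2378 had an unadjusted p under 0.05. DESeq2 also gave 0 of the 11 genes an unadjusted p under 0.05, and no adjusted p for them. Among all genes it called 69 of the 2489 with an adjusted p (2.77%). With no filter on low counts, edgeR called 79 of 38850 genes (0.203%) and 0 of the 11. With 2 samples for each group and set, the interaction of rank 10 was 2.12 on the log2 scale with a standard error of 1.10 (adjusted p = 0.644, edgeR's quasi-likelihood test). The interaction of the mixture and set gave 0 calls among the 11 genes as well, and 0 with an unadjusted p under 0.05 (edgeR's quasi-likelihood test, 0% of all genes called). T4 reads helped the genes pass the filter in this fit too, and most had few reads in the mixture and control samples. These 0 calls thus cannot show that the effect of the mixture was alike in both sets.

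**Figure D5:**
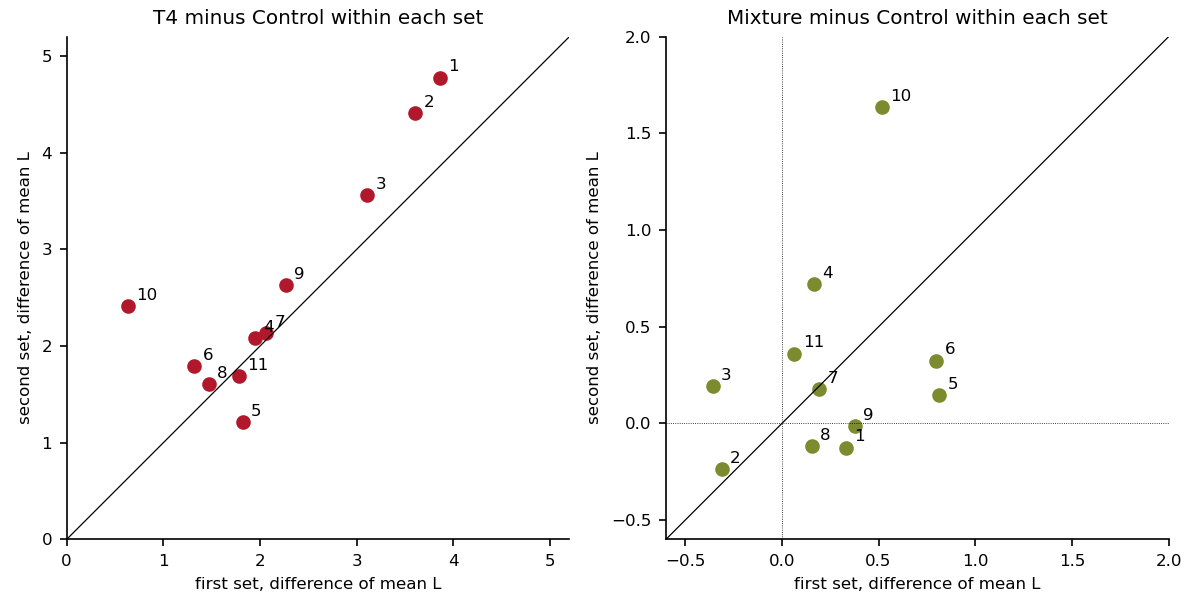
Difference from control within the second set against that within the first set on the log2(CPM + 0.5) scale, for T4 and for the mixture, with each gene marked by its rank and the diagonal marking equal differences. Rank 10 lies farthest above the diagonal in both panels, at 2.41 in the second set and 0.63 in the first for T4, and at 1.63 in the second set and 0.52 in the first for the mixture.

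In the gene of rank 10 the level differed between the sets, mostly in the exposed groups. On the log2(CPM + 0.5) scale it was higher in the second set by 1.98 after T4, by 1.32 after the mixture and by 0.20 in the control. The fit of group and set without their interaction gives 1 difference for all groups. With the group in the fit, its level was higher in the second set by 2.17 on the log2 scale (standard error 0.36, adjusted p = 0.000922, edgeR's quasi-likelihood test, adjusted by Benjamini-Hochberg). It was the only gene of the 11 called between the sets, where 13.4% of all genes were called. The sets came from a component of all genes of these same libraries, so that this count describes them. A component without the 11 genes divided the samples in the same way. gene47623 was higher in the second set by 1.07 and missed the threshold (adjusted p = 0.0549, edgeR's quasi-likelihood test), which it passed without control sample 1, mixture sample 8 or T4 sample 9 (adjusted p from 0.0410 to 0.0449 in edgeR's test). In 5 genes (ranks 2, 6, 7, 9 and 10) both T4 samples of the second set were above both of the first. This held for 20.3% of the genes with at least 1 read. In ranks 3 and 11 both were below, an order whose share over all genes was not counted. The T4 samples of gene47623 were at 17.5 and 13.0 CPM in the second set and at 9.37 and 5.28 CPM in the first. Rank 11 ran the opposite way, at 1.73 and 1.33 CPM after T4 in the second set and at 3.24 and 2.36 CPM in the first. DESeq2 called both gene47623 and rank 10 between the sets, against 13.3% of all genes, and so did edgeR with no filter on low counts, against 10.3%. Of the 10 genes other than rank 10, 6 were higher and 4 lower in the second set, with an adjusted p from 0.0549 to 0.989 in edgeR's test.

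The same 4 conditions were applied to other pairs of groups. With the mixture in the place of T4 they gave 0 genes. With the control as the high group and T4 as the low group, genes near silent after T4, they gave 12. With the control as the high group and the mixture as the low group they gave 1. With the mixture as the high group and T4 as the low group they gave 18. With T4 as the high group and the mixture as the low group they gave 16 genes, and 8 of these were among the 11. These 8 are 50.0% of the 16 genes and 72.7% of the 11. Both selections use the same 4 T4 samples as the high group, so that the overlap only describes them. The 3 genes outside this overlap, ranks 5, 6 and 10, had mixture means above 1 CPM, at 1.39, 1.34 and 1.20 CPM.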

How the data were processed

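Stranded mRNA libraries from tadpole brains were sequenced as single-end reads. The deposited tables hold raw read counts per gene, which the authors made by keeping 1 copy of each cluster of duplicated reads, trimming, mapping unique hits to *Xenopus laevis* genome release 9.2 with Bowtie2 (version 2.2.4) and counting with HTSeq (version 0.9.1). The submitters' processing notes also name cutadapt 1.15 and FastQC 0.11.2. The strand setting of the counting is not given in the sources used here. Reads of near-identical homeologous copies can be lost under unique mapping. The 5 rows that name no gene held 38.3 to 42.2% of each table and were left out.

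CPM used the sum of the gene counts. Tests were edgeR's quasi-likelihood test (version 4.0.16, R 4.3.3, TMM, filterByExpr with a minimum count of 10) on all 12 samples with Benjamini-Hochberg adjustment over all genes tested and a threshold of 0.05. Residual degrees of freedom were 9 with the 3 groups and 6 with the interaction of group and set. Standard errors are the log2 fold change divided by the square root of F. The fits were tested on simulated data. DESeq2 (version 1.42.0), other normalizations, filters, pseudocounts, limits of the rule, the set as a factor, the 2 compared groups alone and the omission of each sample were alternatives. The study's methods removed component 2 before testing. The main tests between groups here did not, and held no term for the set. With the set as a factor, 625 genes were called for the mixture against control, and 141 in the main fit. No pair of samples of a group differed by so little that they could be 1 library (18 pairs, chi-square per degree of freedom 3.02 to 6.92).

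The genes, the sets and the tests were chosen with earlier results of these data known. The 2 genes printed by number are the one with the highest T4 mean and the one with the largest difference, or the next by difference where these are the same gene. Marker lists and thyroid hormone response lists were not used, since no gene number was paired with a name. Figures were drawn with matplotlib 3.10.9 in Python 3.11.15.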

Additional observations from a re-analysis of the deposited data

Results flagged for a closer look

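In 33 groups of 4 samples (11 genes in 3 groups), 3 held a sample whose gap to its nearest neighbour was too large a part of the range of the group by Dixon's test at the 95% level. For values with a normal distribution, chance marks about 1 in 20 such groups, or 1.65 of 33. Many of these groups hold counts of a few reads with ties, and the rule chose the T4 and control values. The number of flags is therefore not judged against 1.65. The gene of rank 5 was low in T4 sample 9, at 2.43 CPM, while the other T4 samples lay between 3.63 and 3.81 CPM. gene47623, of rank 2, was at 0.279 CPM in mixture sample 7, which is 3 reads, against 0 reads in the other mixture samples. The gene of rank 9 was at 0.271 CPM in control sample 1, which is also 3 reads, against 1 read in each of the other control samples. Both of these values rest on a count at the floor.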

How the results depend on the processing

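The number of genes that the rule selects depended on its limits. It was 11 as reported, 12 with TMM-scaled CPM, 19 with a pseudocount of 0.25 (all 11 kept), 6 with a pseudocount of 1, 6 with a control mean under 0.5 CPM, 3 with a T4 mean of at least 5 CPM and 6 with a difference of at least 2. Without 1 sample it was 10 to 15, with at least 8 of the 11 kept. The median difference of T4 was 2.35 with a pseudocount of 0.25 and 1.59 with a pseudocount of 1, and 1.86 to 2.18 without 1 sample. For the mixture it was 0.09 to 0.27 without 1 sample. In edgeR's test, T4 calls were 10 to 11 without 1 sample, with rank 8 lost without control sample 1, control sample 2 or T4 sample 11, and rank 10 lost without T4 sample 12. T4 calls were 8 within the first set, where 10.9% of all genes were called higher, and 10 within the second, where 11.9% were. Rank 8 was called in neither set (adjusted p = 0.0762 in the first and 0.0827 in the second, edgeR's quasi-likelihood test). With the T4 and control samples alone, 10 genes were tested and 10 called, against 22.5% of all genes in either direction. The rule used this contrast, so that these T4 calls are a description. Mixture calls against the control were 0 to 0 without 1 sample, 1 with the set as a factor and 1 within the second set. Mixture calls against T4 were 9 to 10 without 1 sample, and rank 6 was also lost with the 2 compared groups alone (adjusted p = 0.0501, edgeR's quasi-likelihood test). In the main fit of this contrast, whose T4 samples chose the genes, 19.9% of all genes were called lower after the mixture. Calls between the sets were 2 with DESeq2, 2 with no filter on low counts, and 1 to 2 without 1 sample. The added gene was gene47623. It passed without control sample 1, mixture sample 8 or T4 sample 9. For rank 10, the log2 difference between the sets was 1.86 to 2.38 and the fold change of the mixture from control 1.92 to 2.67 without 1 sample. The fold change from T4 was -1.29 to -0.05. Calls of either interaction were 0 to 0 without 1 sample. The omission of samples in the interaction and the fits within a set were chosen after seeing the data. The cause of these shifts was not tested. With at least 10 counts in every sample none of the 11 genes was tested, and the DESeq2 interaction gave them no adjusted p. No paired analysis was possible because the groups share no replicate numbers, and the fit with the set as a factor pairs no samples. Low control counts limit the precision of the ratios to the control.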
